A study of Mus musculus with 2 samples.

Results

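Axon guidance ligands and their receptors were examined in whole spinal cord from C57BL/6 mouse pups 7 days after birth (P7). The members are the genes of 10 symbol groups (Sema, Plxn, Nrp, Slit, Robo, Ntn, Unc5 with Dcc and Neo1, Eph, Efna and Efnb) in the deposited gene table. Genes were matched by name and no measured value entered that rule, but the choice was made with earlier results of these data known. The members came to 69 of the 51826 genes listed, 34 of them ligands and 35 receptors. The study compared wild-type mice (WT) with mice carrying Olig1-Cre and a Secisbp2l gene floxed at exon 3 (cKO), in RNA of the whole cord. Olig1-Cre acts in the oligodendrocyte lineage, and RNA of the whole cord pools these cells with all others. Each group is 1 library, the number of animals behind it is not stated in the labels, and no p-value can be given for any difference between the genotypes.

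Guidance cues are secreted or membrane-bound proteins that a growing axon or a migrating cell reads through receptors on its surface. Semaphorins act through plexins, with neuropilins as co-receptors for the secreted class 3 members. Slits act through Robo receptors, netrins through Dcc, neogenin and Unc5, and ephrins through Eph receptor tyrosine kinases, where both partners sit in membranes and the ligand can also signal into its own cell. In the postnatal cord many of these genes are also used by glia, and oligodendrocytes carry semaphorins, plexins and Eph receptors while they migrate, extend processes and form myelin.

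Estimated counts summed to 42875143 (WT) and 55179026 (cKO). Pairs of values below are given in that order, WT first. Levels between genes are given per length, as the FPKM the authors deposited. For the difference between libraries, counts were scaled to 1000000 per library (CPM, with TMM factors). Ratios are log2 of cKO CPM over WT CPM, with an exact (Clopper-Pearson) 95% interval that covers counting error only. Genes with a mean CPM of 1 or more count as measured. A measured gene is called higher or lower by a rule of size, which asks for at least 1.5-fold, a log2 ratio of 0.585 in either direction, with an interval that leaves out 0. The targeted gene, Secisbp2l, had 588 and 466 CPM, values that pool cells with and without Cre and do not isolate the floxed exon. The sex-linked genes also differed between the libraries, with Xist at 820 and 0.24 CPM and 4 Y-linked genes at 0 counts in WT only, so genotype and this difference cannot be told apart.

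Of the 69 guidance genes, 68 were measured, and the remaining one was Ntn5, with 6 counts in WT and 14 in cKO. By the size rule 6 members were lower in the cKO library and 0 were higher. They were the receptors Plxnb3, Ephb1, Epha3 and Robo3 and the semaphorins Sema4d and Sema3d. The 6 make up 8.82% of the measured members, where 3.42% of all 15917 measured genes were lower and 2.46% higher. At a 2-fold limit 0 members were lower or higher, against 1.15% and 0.817% of all measured genes. In RNA of a whole tissue, fewer cells of a type and less RNA per cell cannot be told apart, and all 10 mature oligodendrocyte markers were also lower by the rule, with a summed level of 17044 and 8197 CPM. Most other members lay above 0, by smaller amounts. The log2 ratio lay above 0 in 49 of 68 members, or 72.1%, and below 0 in 19, against 52.3% and 47.7% of all measured genes. The median over the members was 0.11 against 0.01 over all genes. The counting interval lay wholly above 0 for 31 members (45.6%) and wholly below 0 for 11 (16.2%), against 21.9% and 18.4% of all measured genes. The longest transcript of the members had a median of 5047.5 nt against 3346 nt over all measured genes. Among the 2080 measured genes inside the members' quartile ranges of both transcript length and CPM, the median log2 ratio was 0.03, 57.3% lay above 0, and the interval lay wholly above 0 in 29.1% and wholly below 0 in 20.9%. In that set 2.45% were lower and 1.78% higher by the rule. With length alone matched (4641 genes) 2.50% were higher and 139 genes were lower by the rule.

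**Figure D1:**
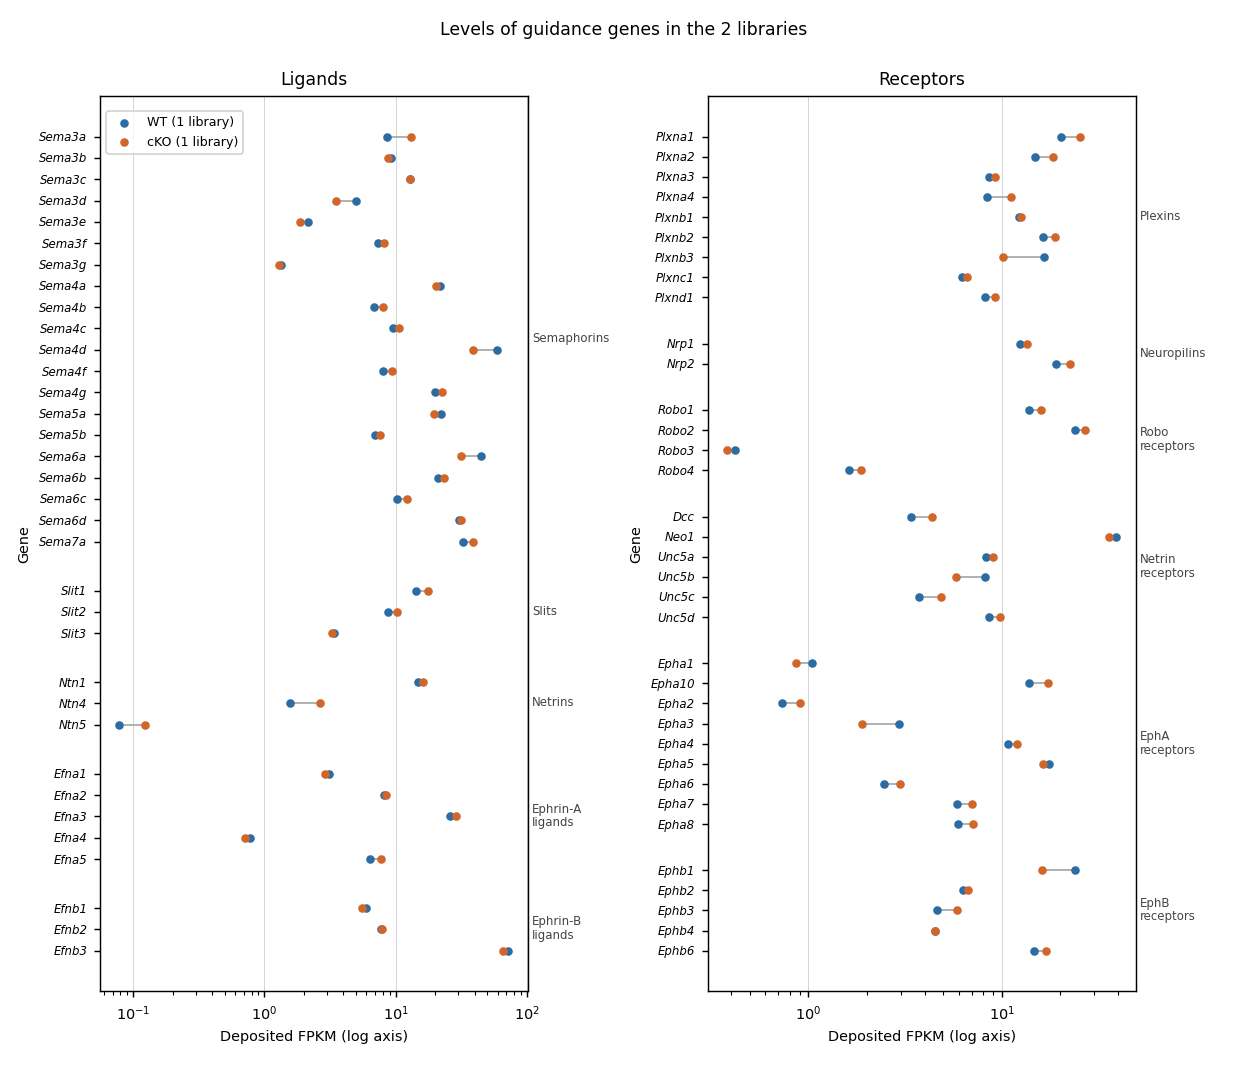
Deposited FPKM (log axis) of all 69 guidance genes, ligands on the left and receptors on the right, with 1 point for the WT library and 1 for the cKO library joined by a line. Efnb3 was the most abundant member in both libraries, and Sema4d, Sema6a, Plxnb3 and Ephb1 had their cKO point clearly to the left of the WT point.

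The 20 semaphorins, the largest ligand family, held both of the ligands that were lower by the rule. Sema4d, a transmembrane semaphorin that binds B plexins and is made by oligodendrocytes, had 58.9 FPKM in WT, second only to Efnb3 among the members, and 38.8 FPKM in cKO. Its 194.3 and 127.3 CPM give a log2 ratio of -0.61 (interval -0.67 to -0.54). Its 3 main transcripts had log2 ratios of -0.60, -0.50 and -0.85, and the share of Sema4d-202 was 70.4% and 70.8%. Sema4d lies on the minus strand of chromosome 13, from 51701246 to 51793747 in GRCm38.p6. Sema3d, a secreted class 3 semaphorin (chromosome 5, 12383385 to 12588948, plus strand), had 34.9 and 23.2 CPM, a log2 ratio of -0.59 (interval -0.74 to -0.44). That value sits at the limit of the rule, and with upper quartile scaling Sema3d was at -0.57 and missed it.

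Just outside the rule stood Sema6a, a transmembrane ligand and receptor that binds A plexins. It had 244.96 and 173.2 CPM, a log2 ratio of -0.50 (interval -0.56 to -0.44), and its FPKM was the third highest of all members in WT (44.7) and the sixth in cKO (31.3). Its transcripts differed unequally, since Sema6a-206, the main one, was at -0.68 and Sema6a-202 at -0.03. Sema5a, which carries thrombospondin repeats, had 272.4 and 238.8 CPM (log2 ratio -0.19, interval -0.24 to -0.14). Sema4a, at 57.3 and 52.2 CPM, was the only other semaphorin with an interval wholly below 0 (log2 ratio -0.13).

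The remaining semaphorins all lay within 1.5-fold. Sema7a, which is anchored to the membrane by a lipid and binds integrins and plexin C1, had 32.7 and 38.8 FPKM (log2 CPM ratio 0.25, interval 0.18 to 0.33), so that Sema7a and Sema4d were at nearly one level in cKO. Sema4f had the highest ratio of the family, 0.28, on 34.9 and 42.4 CPM. Sema6d, another ligand of A plexins, had 140.4 and 149.1 CPM (log2 ratio 0.09). The 7 secreted class 3 genes had a median log2 ratio of -0.01. Sema3c, the most abundant of them in WT by FPKM, had 77.8 and 77.9 CPM, and Sema3d was the only class 3 gene past the rule.

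Slits, netrins and ephrins gave no member past the rule. Slit1, a Slit made by neurons, had 84.9 and 107.0 CPM (log2 ratio 0.33, interval 0.25 to 0.42), Slit2 66.5 and 75.6 CPM (0.19), and Slit3 18.8 and 17.6 CPM (-0.10). Ntn1, the netrin of the floor plate and of oligodendrocytes, stood at 90.8 and 94.6 CPM (log2 ratio 0.06, interval -0.03 to 0.14). Ntn4, a netrin of basement membranes, had 5.94 and 6.09 CPM.

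Among the ephrins, the B ligand Efnb3 was the most abundant guidance gene of all. Efnb3, which acts as a midline barrier for corticospinal axons, had 72.4 and 65.6 FPKM, and its 260.3 and 236.5 CPM give a log2 ratio of -0.14 (interval -0.19 to -0.09). Efnb2 (39.0 and 40.6 CPM) and the X-linked Efnb1 (21.8 and 19.97 CPM) had intervals that included 0. Of the 5 lipid-anchored A ligands, Efna3 was the most abundant, with 25.9 and 29.0 FPKM. Efna5, a repellent of many growing axons, had the highest ratio of the ephrins, with 26.0 and 32.4 CPM (log2 ratio 0.32, interval 0.17 to 0.48).

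**Figure D2:**
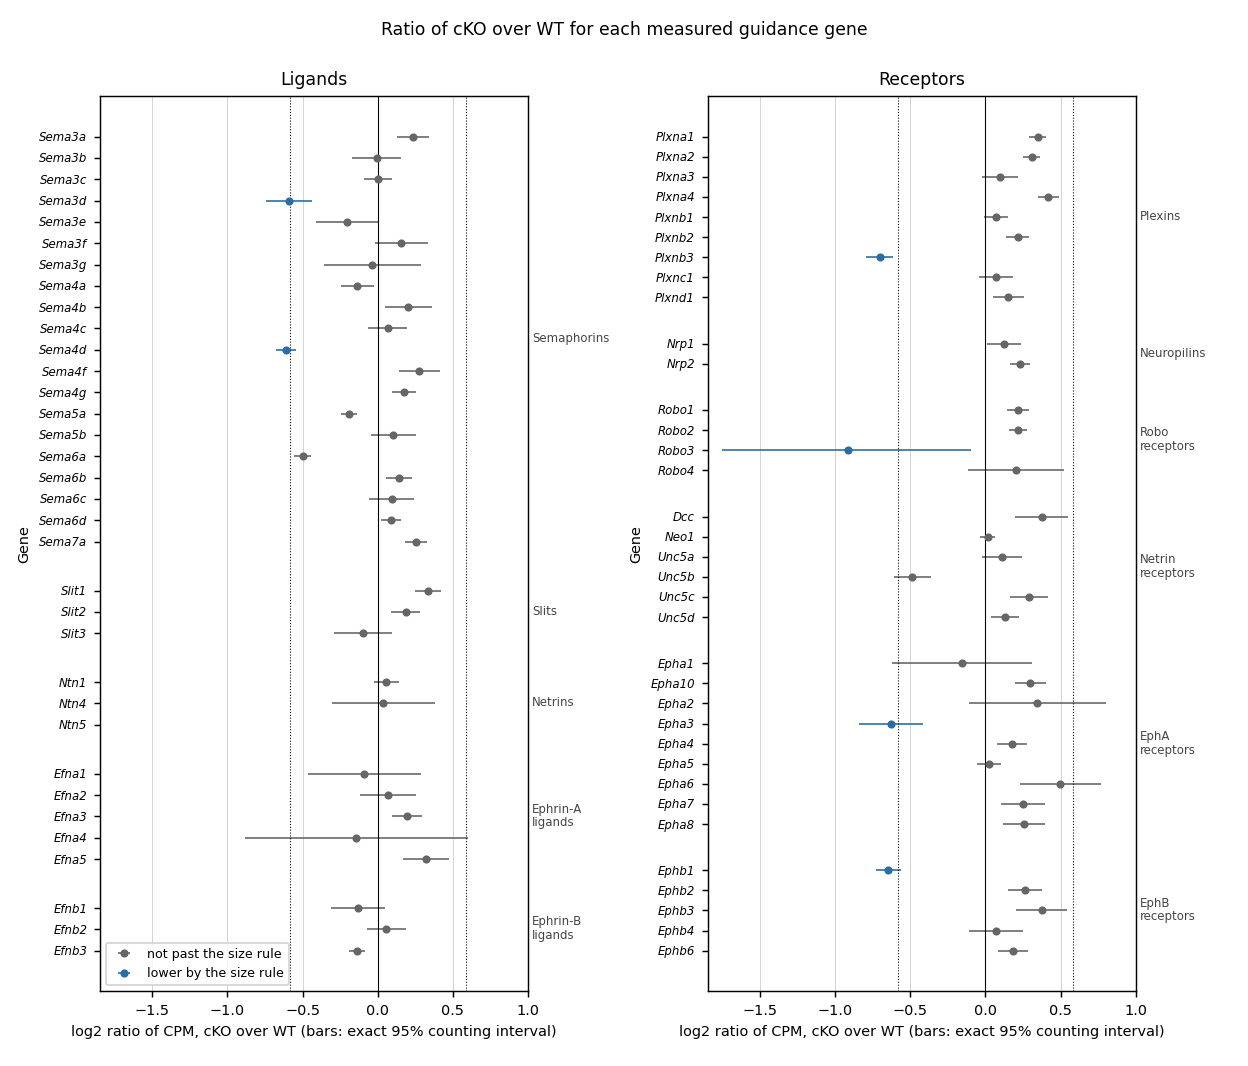
The log2 ratio of CPM, cKO over WT, for each of the 68 measured guidance genes by family, with exact 95% counting intervals as bars, dotted lines at 1.5-fold and genes lower by the size rule in blue. The 6 genes lower by the rule fall in 5 families, and in each of these families other members lie near or above 0.

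Receptors and ligands are compared here by counts alone. Of the 35 receptors, 4 were lower by the rule and 29 had a log2 ratio above 0, with a median of 0.18. The 33 measured ligands had 2 lower, 20 above 0 and a median of 0.06.

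Among the 9 plexins 1 was lower by the rule and 8 lay above 0. Plxnb3, a receptor of Sema5a and the B plexin known from oligodendrocytes, had 16.6 and 10.2 FPKM. It stood at 109.9 and 67.4 CPM, a log2 ratio of -0.71 (interval -0.79 to -0.62), or 1.63-fold lower, the lowest ratio of any member above 5 CPM. Its main transcript, Plxnb3-201, held 85.6% and 87.6% of its counts. Plxnb1 (105.5 and 110.7 CPM, log2 ratio 0.07) and Plxnb2 (108.3 and 125.8 CPM, 0.22), of the same subfamily, were not lower. Plxnb3 is X-linked, at 73757090 to 73772514 on the plus strand. The other 2 X-linked members, Plxna3 and Efnb1, had log2 ratios of 0.10 and -0.13, with intervals that included 0.

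All 4 A plexins, the receptors of class 3 semaphorins with neuropilins and of class 6 semaphorins alone, lay above 0. Plxna4 had 121.6 and 162.4 CPM, a log2 ratio of 0.42 (interval 0.35 to 0.49), the highest of the plexins. Plxna1, the most abundant plexin, had 20.4 and 25.5 FPKM (log2 CPM ratio 0.35), and Plxna2 14.9 and 18.4 FPKM (0.31). Plxna2 and Plxna4, the receptors of Sema6a, thus had ratios above 0 while Sema6a had one below 0. Nrp2 (131.3 and 153.8 CPM, log2 ratio 0.23) and Nrp1 (49.8 and 54.3 CPM, 0.13) also lay above 0, with intervals that left out 0.

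Eph receptors, which make up 14 of the members, included 1 lower gene in each class. Ephb1, a receptor of B ephrins, was the most abundant Eph receptor in WT at 24.1 FPKM, and in cKO its 16.2 FPKM was below that of Epha10, Ephb6 and Epha5. It had 124.3 and 79.4 CPM (log2 ratio -0.65, interval -0.73 to -0.56). The other 4 EphB genes lay above 0, among them Ephb3 with 4.62 and 5.86 FPKM (log2 CPM ratio 0.37, interval 0.20 to 0.55) and Ephb6, which lacks kinase activity, with 62.5 and 71.0 CPM (0.18). Ephb1 extends over 101922128 to 102354693 on the minus strand of chromosome 9, and an antisense gene with counts, Gm26846, overlaps its exons.

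Epha3, a receptor of A ephrins on a single listed transcript, stood at 18.7 and 12.1 CPM, a log2 ratio of -0.63 (interval -0.84 to -0.41). It was low in both libraries, at 2.93 and 1.89 FPKM, and lies on the minus strand of chromosome 16 from 63543538 to 63864158. Epha6 lay at the other end, with 8.34 and 11.8 CPM and the highest ratio of all measured members, 0.50 (interval 0.23 to 0.77). Epha5, the most abundant EphA gene by FPKM in WT (17.5), was level at 100.2 and 101.7 CPM, and Epha10, a receptor without kinase activity, had 58.9 and 72.4 CPM (log2 ratio 0.30). Epha4, which mediates the response of corticospinal axons to Efnb3, had 66.7 and 75.4 CPM (0.18).

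Among Robo and netrin receptors 8 of 10 lay above 0 and 1 was lower by the rule. Robo2 and Robo1, the main Slit receptors of axons, had 170.8 and 198.6 CPM and 117.5 and 136.7 CPM, with the same log2 ratio of 0.22. Robo3, which lets commissural axons cross the midline before birth, was called lower on 66 counts in WT and 45 in cKO, or 1.54 and 0.816 CPM (log2 ratio -0.91, interval -1.76 to -0.10). Its deposited FPKM was 0.420 and 0.380, and it lies on the minus strand of chromosome 9 from 37415669 to 37433246. The main Robo3 transcript in WT, annotated for nonsense-mediated decay, had 39 and 10 counts. Retained-intron transcripts had 18 and 8 counts, and 5 and 11. The only protein-coding one with at least 10% of the counts had 4 and 15 counts (log2 ratio 1.54, interval -0.81 to 4.83). The lower call is therefore of the gene total and not of the coding form. Neo1, the most abundant netrin receptor, had 39.2 and 35.8 FPKM and a log2 CPM ratio of 0.01. Unc5b, a repulsive netrin receptor, stood just outside the rule with 50.7 and 36.2 CPM (-0.49, interval -0.61 to -0.36), and its main transcripts were at -0.49 and -0.47. Its relatives Unc5a, Unc5c and Unc5d had 0.11, 0.29 and 0.13, and Dcc, the attractive receptor, had 19.6 and 25.4 CPM (0.37).

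The calls depend on how the level is expressed, because most of the 6 genes lie close to 1.5-fold. On the authors' TPM, with 0.1 added before the log2, only Plxnb3 still passed, and Epha3 (-0.58), Sema4d (-0.56), Ephb1 (-0.53), Sema3d (-0.47) and Robo3 (-0.10) did not. In that setting 2.72% of all measured genes were lower by the rule. TPM weights each transcript by its length, so it also moves with the transcript shares described below, and on it Sema3a passed the rule as higher.

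Upstream sequence is shown for Plxnb3, Ephb1 and Epha3, the 3 members with the lowest ratios above 5 CPM, from the RefSeq promoter table (GRCm38.p6), which matched 59 of the 69 members. Each run is written 5′ to 3′ on the gene's strand, holds no annotated exon of the gene, and ends 10, 1 and 18 bases before the start of the main transcript. Capitals mark matches on either strand to ACAAAG or ACAATG, core sequences of Sox factor sites, to the E-boxes CAGCTG and CATATG, or to the GC box GGGCGG, and no matches overlap.
Plxnb3, chrX:73756853-73757089, plus strand: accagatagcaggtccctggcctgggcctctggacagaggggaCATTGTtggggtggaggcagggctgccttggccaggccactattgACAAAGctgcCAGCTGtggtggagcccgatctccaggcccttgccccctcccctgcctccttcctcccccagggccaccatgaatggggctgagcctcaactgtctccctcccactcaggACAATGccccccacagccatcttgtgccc
Ephb1, chr9:102354694-102354943, minus strand: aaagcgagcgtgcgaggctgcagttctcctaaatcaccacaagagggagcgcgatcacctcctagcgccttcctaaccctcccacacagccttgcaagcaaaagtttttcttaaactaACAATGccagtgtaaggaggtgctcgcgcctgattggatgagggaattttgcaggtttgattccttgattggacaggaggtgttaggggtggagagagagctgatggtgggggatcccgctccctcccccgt
Epha3, chr16:63864176-63864425, minus strand: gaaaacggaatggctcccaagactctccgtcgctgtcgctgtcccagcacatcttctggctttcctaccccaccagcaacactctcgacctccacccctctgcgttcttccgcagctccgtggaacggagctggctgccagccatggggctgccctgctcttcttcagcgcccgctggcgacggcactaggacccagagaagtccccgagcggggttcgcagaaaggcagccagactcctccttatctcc
The Plxnb3 run held 4 matches, 1 ACAAAG, 2 ACAATG and 1 CAGCTG, that of Ephb1 1 ACAATG, and that of Epha3 none of the 5. In the 250 bases upstream of all 32851 RefSeq starts, ACAAAG was found in 16.5%, ACAATG in 10.7%, CAGCTG in 13.0%, CATATG in 3.46% and GGGCGG in 32.7%. Among the 59 matched guidance genes, GGGCGG was found in 44 (74.6%), CAGCTG in 12 (20.3%), ACAAAG and ACAATG each in 7 (11.9%) and CATATG in 0. A guidance gene counted if any start listed under its symbol held the match. The shares over all starts are per start and not limited to measured genes, so the 2 sets of shares are not like for like. A match describes these letters only.

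The transcripts behind each gene were compared next, for those with at least 10% of a gene's counts in either library. In 10 of the measured members the share of a transcript differed by at least 10 percentage points between the libraries, although the gene totals of 8 of these 10 lay within 1.5-fold. The shares come from the authors' estimate, which divides reads among transcripts that share most exons, and their 95% Wilson intervals cover counting error only. In 7 of the 10 genes the transcript with the largest loss of share in cKO was longer than the one with the largest gain. Neither count was made over all measured genes, so neither can be read as particular to guidance genes.

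**Figure D3:**
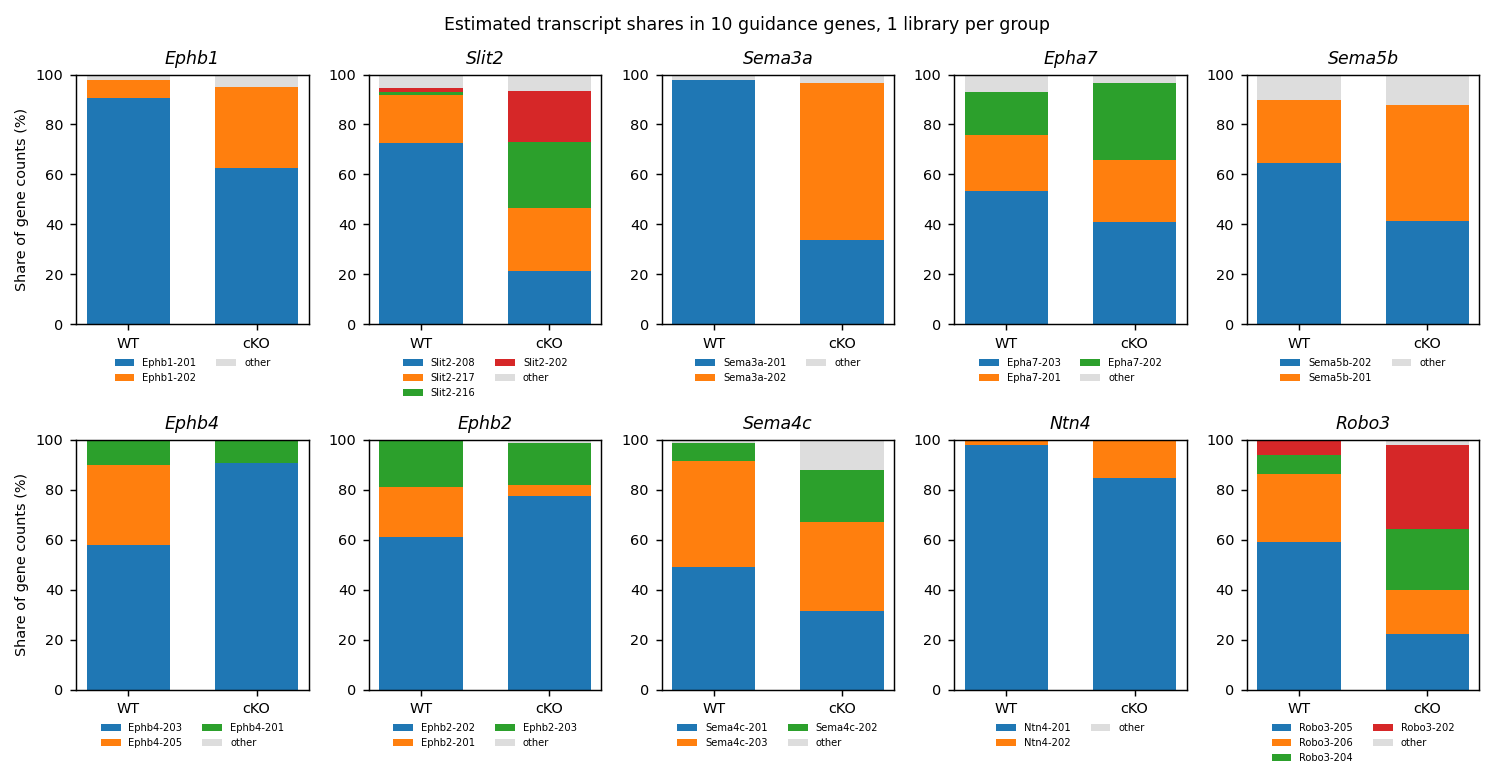
Stacked bars of the estimated share of each gene's counts held by its main transcripts in the WT and the cKO library, in percent, for the 10 guidance genes with a share that differed by at least 10 points. In Sema3a, Slit2 and Ephb1 the transcript that held most counts in WT held 33.6%, 21.4% and 62.7% in cKO.

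Ephb1 combined a lower total with a shift between its 2 main transcripts. Ephb1-201 held 4832 and 2749 counts, or 90.6% (interval 89.4% to 91.7%) and 62.7% (60.7% to 64.7%). Ephb1-202 held 381 and 1422 counts, or 7.14% and 32.5%. The coding regions differ by 1 exon of 123 nt, exon 10 of Ephb1-201, whose length is a multiple of 3. It is shown in capitals with 18 bases of each neighbouring exon, from GENCODE M21 transcripts (GRCm38, chr9:101984082-101984204, minus strand).
Ephb1 exon: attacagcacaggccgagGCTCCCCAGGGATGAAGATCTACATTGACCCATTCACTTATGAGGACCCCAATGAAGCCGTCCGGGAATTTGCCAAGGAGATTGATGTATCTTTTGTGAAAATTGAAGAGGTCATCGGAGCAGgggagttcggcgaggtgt
The transcripts also differ after the coding region, where Ephb1-201 has 1361 nt and Ephb1-202 has 918 nt, so the shift cannot be assigned to the exon alone.

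Slit2 had gene totals within 1.5-fold, 2852 and 4171 counts at the depths above, but its transcripts differed more. Slit2-208 held 72.5% (interval 70.1% to 74.7%) and 21.4% (19.7% to 23.2%) of them. Slit2-216 had 1.58% and 26.5%, Slit2-202 had 1.37% and 20.5%, and the transcript with all 3 small exons shown next had 19.1% and 24.96%. The 3 transcripts that gained share carry 1 to 3 small in-frame coding exons that Slit2-208 lacks, shown in capitals between 18 bases of their neighbours (GRCm38, plus strand).
Slit2 small exon A, 12 nt, chr5:48191003-48191014: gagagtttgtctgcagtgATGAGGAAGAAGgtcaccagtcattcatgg
Slit2 small exon B, 24 nt, chr5:48220967-48220990: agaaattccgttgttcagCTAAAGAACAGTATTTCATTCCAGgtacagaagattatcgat
Slit2 small exon C, 27 nt, chr5:48263641-48263667: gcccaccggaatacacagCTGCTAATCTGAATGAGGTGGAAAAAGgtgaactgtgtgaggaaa
Transcripts with exon A summed to 22.1% and 72.0% of the Slit2 counts, those with exon B to 20.5% and 45.5%, and the single one with exon C to 19.1% and 24.96%. Slit2-208 also has 3495 nt after its coding region against 1273 nt in the other 3, and reads from that stretch enter the same estimate.

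The 2 main Sema3a transcripts have coding regions of equal length. Sema3a-201 held 97.7% and 33.6% of the gene's counts, and Sema3a-202, with 0 counts in WT, held 63.0% in cKO (interval 60.8% to 65.2%). A count of 0 in WT allows a share of up to 0.32% by its Wilson interval. Both coding regions have 2316 nt, and Sema3a-202 is shorter, 4085 against 5930 nt. The gene as a whole differed by a log2 CPM ratio of 0.23 (55.9 and 65.7 CPM), whereas its FPKM, which depends on which transcript is counted, was 8.62 and 13.2.

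Epha7 showed a shift toward a transcript with a shorter coding region. Epha7-202 held 17.2% (interval 14.4% to 20.4%) and 30.9% (28.0% to 33.9%) of the counts, and Epha7-203, the main full-length one, 53.5% and 41.1%. Short forms of Epha7 that end before the kinase domain are known. The coding region of Epha7-202 has 1830 nt against 2982 nt in Epha7-203 and ends in 32 bases of its own, shown in capitals after 18 bases that precede them (GRCm38, chr4:28946219-28946250, plus strand).
Epha7-202 coding end: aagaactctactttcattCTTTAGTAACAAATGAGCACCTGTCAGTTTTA
Sema5b, Ephb2, Ephb4 and Sema4c had shifts of 13.5 to 32.6 points toward the transcript that gained most. In Ephb4, Ephb4-205 held 31.9% in WT and had 0 counts in cKO, which allows up to 0.629% by its Wilson interval. Ntn4 and Robo3 also shifted, on 336 counts or fewer per library, and Ntn4-202, with 582 nt, held 52 of the Ntn4 counts in cKO and 5 in WT. By contrast, Plxnb3, Sema4d and Unc5b had main transcript shares within 2 points.

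Other genes of the pathway were taken from 2 lists chosen by function. All 43 co-receptors, modulators and adhesion partners were measured, 2 were higher by the size rule, 0 were lower, and the median log2 ratio was 0.12. Celsr3, an atypical cadherin needed for axon tracts, had 66.0 and 101.7 CPM (log2 ratio 0.62, interval 0.53 to 0.72), and Met, a receptor that associates with plexins, 2.94 and 4.99 CPM (0.76). Celsr3 missed the limit on TPM with 0.1 added (0.43), and Met with 1 added (0.53). The 3 partners of highest mean CPM differed in direction. Nfasc, an adhesion molecule of nodes and paranodes, had 1067 and 754 CPM (-0.50), Cntn1, an axonal adhesion molecule, 502.3 and 667.3 CPM (0.41), and Sdc3, a heparan sulfate proteoglycan, 739 and 848 CPM (0.20), all within 1.5-fold.

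The 53 intracellular effectors, all measured, had a median log2 ratio of 0.10, with 1 higher by the rule and 0 lower. That gene, Ablim1, links receptors to actin and had 61.6 and 103.7 CPM (log2 ratio 0.75, interval 0.66 to 0.85). The 3 effectors of highest mean CPM, Cfl1 (931 and 907 CPM), Dpysl3 (702 and 791 CPM) and Crmp1 (493 and 589 CPM), the last 2 of them collapsin response mediators, had log2 ratios of -0.04, 0.17 and 0.26. Shares of 4.65% and 1.89% higher stand against the 2.46% of all measured genes.

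**Figure D4:**
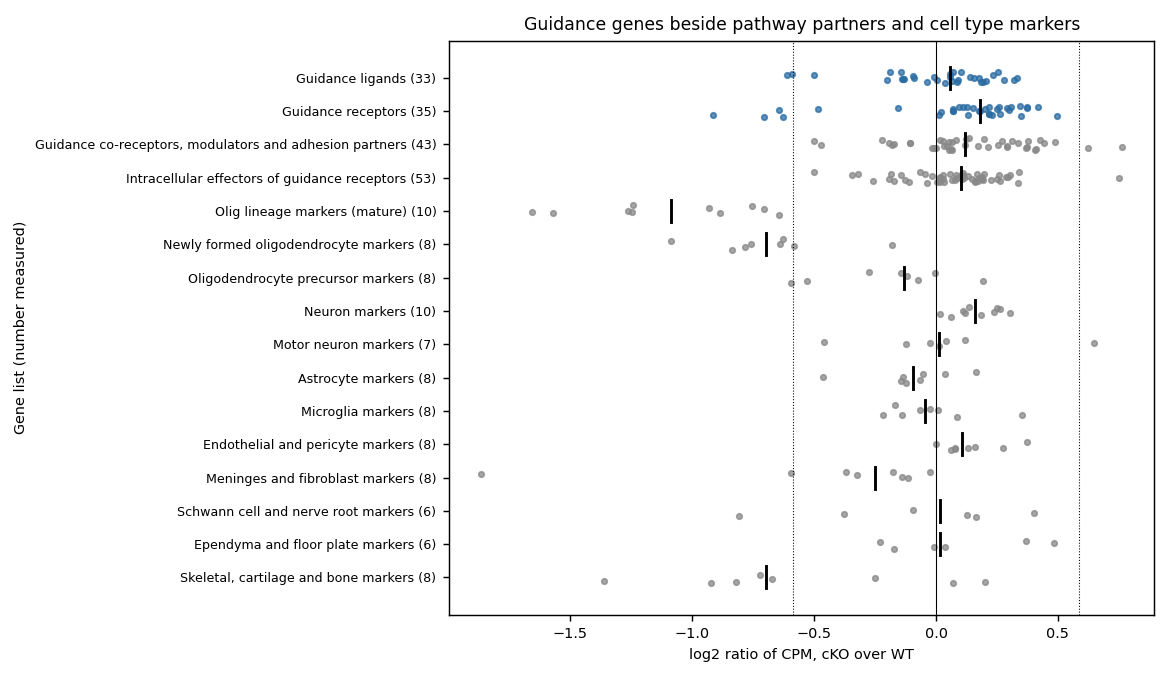
The log2 ratio of CPM, cKO over WT, of each measured gene (points) with the list median (black bar) for guidance ligands and receptors, the 2 pathway lists and the cell type marker lists, and dotted lines at 1.5-fold. Mature and newly formed oligodendrocyte markers lie to the left, with medians of -1.09 and -0.70, and neuron markers lie above 0 with a median of 0.16.

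Markers of the cell types in the cord were read beside these results. Beside the 10 mature oligodendrocyte markers given above, newly formed oligodendrocyte markers were lower in 6 of 8, with sums of 1605 and 1001 CPM. Precursor markers were lower in 1 of 8, with sums of 1431 and 1312 CPM. That gene was Sox10 (log2 ratio -0.59), and Olig2 was at -0.53. The rest of the precursor list ranged from -0.27 (Lhfpl3) to 0.19 (Cspg5), with Pdgfra at -0.07. The ratios of the 6 members lower by the rule, from -0.91 (Robo3) to -0.59 (Sema3d), lay between the precursor median of -0.13 and the mature median of -1.09. Values of other lists fell in the same span. The skeletal, cartilage and bone median was -0.70, meningeal Ogn was at -0.60 and Drp2 of the Schwann cell list at -0.81. The cell type behind the ratios of the 6 members was not tested. Neuron markers lay above 0 in 10 of 10, with 0 past the rule and sums of 6803 and 7698 CPM. Motor neuron markers lay above 0 in 4 of 7, with a median of 0.01, Isl2 higher by the rule (0.65), the interval of Slc5a7 wholly below 0 and sums of 175.1 and 171.8 CPM. Meningeal and fibroblast markers lay below 0 in 8 of 8 and summed to 4582 and 3889 CPM, with Igf2 and Ogn lower by the rule. Astrocyte and microglia markers gave 0 of 8 past the rule each, with sums of 5409 and 5117 CPM and of 239.4 and 237.3 CPM. They lay below 0 in 6 of 8 and 5 of 8, with the interval wholly below 0 in 6 and 1. Endothelial and pericyte markers lay above 0 in 8 of 8, as neuron markers did, with 0 past the rule and sums of 477 and 514 CPM. Robo4, the Robo of endothelium, had 6.46 and 7.42 CPM. Skeletal, cartilage and bone markers were lower in 5 of 8 at low sums of 35.2 and 27.7 CPM, Schwann cell markers in 1 of 6 with sums of 1001 and 1090 CPM, and ependyma and floor plate markers in 0 of 6. None of these marker genes was at 0 in either library, and their part in the guidance gene differences was not tested.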

How the data were processed

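Spinal cord RNA was measured in 2 groups of 1 library each (WT and cKO), grouped by the genotype in the labels. Per the submitters' processing notes, CASAVA, Bowtie2 2.3.2 and GRCm38.p6 were used. Not given in the sources used here are the counter, the annotation release and the use of strand, so 13 members overlapped by an antisense gene with counts are uncertain. The authors deposited estimated counts, TPM and FPKM per gene and transcript, per the file headers. The estimated counts are whole numbers, and 99.6% of the deposited transcript counts under 50 in either library equal a constant times FPKM times length rounded up, within 0.1. This value lay near even numbers more often than near odd ones (30.8% against 22.4% of 5628 genes in WT within 0.2), so 2 counts were taken as 1 fragment in intervals, which widens them. PCR copies are not independent molecules, and intervals and floors cover counting error only.

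CPM used TMM factors from edgeR 4.0.16 (R 4.3.3). Intervals used scipy 1.17.1 and statsmodels 0.14.6 under Python 3.11.15. The ratio intervals were run on simulated counts drawn at exactly 2 per fragment with counting error only. That run checks the code, not whether the deposited counts follow this setting. A gene at 0 in one library was set to 3 fragments. Exon structures came from GENCODE M21 (GRCm38), where 96.8% of the deposited transcripts have the same ends. Members and lists were chosen with earlier results of these data known. Values are given for members past the size rule, the 2 of highest mean FPKM in each family, the 3 highest and 3 lowest ratios above 5 CPM, and others where a family is described. In the pathway lists they are given for genes past the rule and the 3 of highest mean CPM. Alternatives were 3 scalings, TPM with 2 pseudocounts, 2 filters, intervals on counts as deposited, a 2-fold limit and, chosen after seeing the data, autosomal genes only.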

Additional observations from a re-analysis of the deposited data

How the results depend on the processing

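The median log2 ratio of the measured guidance genes lay between 0.10 and 0.17 in every alternative run, over 68 genes, or 69 with no filter, 64 with a filter of 5 CPM and 65 with autosomal genes only. The count of lower genes was 6 with median-of-ratios factors, total counts, no filter or intervals on counts as deposited, and 5 with upper quartile scaling (without Sema3d, leaving 1 semaphorin), with a filter of 5 CPM (without Robo3, leaving 0 Robo receptors) or with autosomal genes only (without Plxnb3, leaving 0 plexins). Of all measured genes, 3.21% were lower with upper quartile scaling, 2.41% with the 5 CPM filter and 3.38% with autosomal genes only. The count of lower members was 1 of 68 on the deposited TPM with 0.1 or 1 added, against 2.72% and 2.12% of all measured genes. On TPM the members thus held no larger share of lower genes than all genes. That left 0 among semaphorins, EphA, EphB and Robo receptors, and at a 2-fold limit the count was 0 in each family. TPM also gave 1 higher member, Sema3a, against 2.61% and 1.88% of all measured genes with 0.1 and 1 added. Over all measured genes the TPM alternatives shifted the median from 0.01 to 0.05 and 0.04. The netrin median was 0.48 and 0.42 on TPM against 0.05, since TPM counts the short Ntn4-202 more heavily. Co-receptors and partners had 2 higher genes, 1 on TPM with 0.1 added and with the 5 CPM filter, and 0 on TPM with 1 added and at 2-fold, where effectors also had 0. The shares of all measured genes that were higher in these settings were 2.61%, 1.49%, 1.88% and 0.817%, in that order. Depth limits Robo3, Efna4 and Ntn5 most. No paired analysis was possible because each group has 1 library, and leaving out a library leaves no comparison.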
